A study of Homo sapiens with 14 samples.

Results

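Ribosome biogenesis and nucleolar genes were examined in A549 and H1792, cell lines derived from human lung adenocarcinoma, after treatment with the pan-aurora kinase inhibitor AMG900. The 42 genes encode MYC, the RNA polymerase I machinery, the 2 classes of snoRNP core proteins, nucleolar scaffold proteins and assembly factors of both ribosomal subunits. They were found by matching a list of symbols to the gene column of the count tables. All 42 were listed among the 26732 genes that both tables share, and all 42 passed the filter on low counts in each line. Cells grown as monocultures received 0.1 µM AMG900 or its solvent DMSO alone for 48 h, and total RNA was purified from them for sequencing. There were 4 DMSO and 4 AMG900 libraries of A549 and 3 DMSO and 3 AMG900 libraries of H1792. The labels speak of 3 replicates per treatment but list 4 for A549, and all 14 libraries were used. No source used here says that replicates came from separate dishes, days or passages. The p-values therefore set differences against the spread between these libraries, which may be technical.

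Making a ribosome starts in the nucleolus. RNA polymerase I transcribes the ribosomal DNA into a long precursor, small nucleolar RNPs (snoRNPs) guide chemical marks onto it, and a large set of assembly factors cut and fold it into the small and the large subunit. MYC, a basic helix-loop-helix transcription factor, is known to switch on many of these genes through the E-box CACGTG, which ties their mRNA levels to cell growth. The values here are scaled to the counts of each library, so they give a gene's share of the RNA counted and not the number of cells. A bulk sample cannot tell a lower share of cycling cells apart from a lower share of a gene's mRNA within each cell.

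The E-box is printed here because it is the sequence through which MYC is known to bind many of these genes, and the counts further on compare members with and without it. RefSeq promoter windows on GRCh38.p14, which run from 250 bases before to 50 bases after a gene's start, were given for 34 of the 42 genes. *MYC*, *NOP58*, *NOLC1*, *BOP1*, *RRS1*, *RRP12*, *DDX18* and *TCOF1* had no entry. CACGTG, which reads the same on both strands, was present in at least one window of 16 of the 34 genes (47.1%), against 8.77% of 27305 genes with a window and 12.7% of 9859 such genes tested in A549. The 100 bases before the start are shown for a member that fell in both lines, *UTP20*, on the plus strand at chr12:101280005-101280104, and for a member that rose in H1792, *NOP10*, on the minus strand at chr15:34343137-34343236. Both are 5′ to 3′ with the E-box in capitals.
UTP20: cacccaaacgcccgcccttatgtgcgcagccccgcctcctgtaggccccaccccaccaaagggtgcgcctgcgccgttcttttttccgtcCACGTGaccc
NOP10: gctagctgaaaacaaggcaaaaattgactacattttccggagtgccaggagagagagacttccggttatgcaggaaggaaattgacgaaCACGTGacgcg

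For other members only the E-box and up to 10 bases on each side are shown, from the first window that held one. They were chosen to cover the patterns described next: lower in A549 (LYAR at chr4:4290070-4290095, minus strand, and FBL at chr19:39846358-39846383, minus strand), lower in both lines (DDX21 at chr10:68956606-68956631, plus strand, GNL3 at chr3:52686028-52686053, plus strand, and NOC3L at chr10:94362905-94362930, minus strand), higher in H1792 (NOP2 at chr12:6568242-6568266, minus strand) and called in neither line (RRP9 at chr3:51941894-51941919, minus strand).
LYAR: gcggcgagtcCACGTGctccccgcgg
FBL: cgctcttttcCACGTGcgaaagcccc
DDX21: ccgggtgtccCACGTGgtccccggcg
GNL3: cttcagttcaCACGTGgcgccagcgg
NOC3L: gggacttcggCACGTGtgtcattccc
NOP2: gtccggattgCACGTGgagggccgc
RRP9: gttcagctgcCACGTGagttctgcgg

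Total counts were 4254644 to 18962883 per A549 library and 42760874 to 79902934 per H1792 library, and the smallest was A549 DMSO replicate 1. The lowest count of any member in any library was 41, for *UTP15* and for *PPAN*. The spread between replicates was above counting error in every group, since the chi-square per gene was 3.32 to 48.3 where counting error alone gives about 1. Of the epithelial markers, *KRT8* was at 403 to 4681 CPM (counts per 1e6 reads counted) and *KRT18* at 246 to 2070 CPM over all libraries. *EPCAM* was at or below 0.539 CPM in A549, and the lung lineage marker *NKX2-1* was at or below 0.149 CPM in both lines. The leukocyte markers *PTPRC* and *CD3E* were at or below 0.0945 CPM, and the endothelial *PECAM1* was at or below 0.485 CPM in A549 and at 3.59 to 8.13 CPM in H1792. The other endothelial marker, *VWF*, ran from 0.149 to 5.83 CPM in A549 and from 0.275 to 10.6 CPM in H1792.

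In A549, AMG900 lowered 24 of the 42 genes, raised 1 and left 17 uncalled, at an FDR threshold of 0.01 (edgeR quasi-likelihood test, Benjamini-Hochberg adjustment over all 13174 genes tested). Of all genes tested, 17.8% were lower and 17.2% higher. The median log2 fold change of the members was -0.55, with a range of -1.56 to 0.29, against -0.01 over all genes tested, and 35 of the 42 values were below 0. In H1792 16 genes fell, 3 rose and 23 were not called, where 18.8% of the 15017 genes tested were lower and 16.2% higher. The median there was -0.19, with a range of -1.32 to 0.46, against 0.01 over all genes. The H1792 counts moved with single libraries, to 10 lower without AMG900 replicate 1 or replicate 2, and to 8 higher without DMSO replicate 1 and 5 without DMSO replicate 2. Calls over all genes also moved with these libraries, from 2827 lower and 2439 higher with all of them. Without those AMG900 libraries 1853 of 15142 and 1994 of 15381 genes were lower. Without those DMSO libraries 3047 of 15180 and 2389 of 15401 genes were higher. Of the members, 13 fell in both lines, 11 in A549 alone and 3 in H1792 alone at that threshold, and 11 were called in neither. The groups did not overlap for 24 members lower and 2 higher in A549, where 22.0% and 21.9% of all genes did so. In H1792 they did not overlap for 22 lower and 9 higher, where the shares over all genes were 29.6% and 30.1%.

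**Figure D1:**
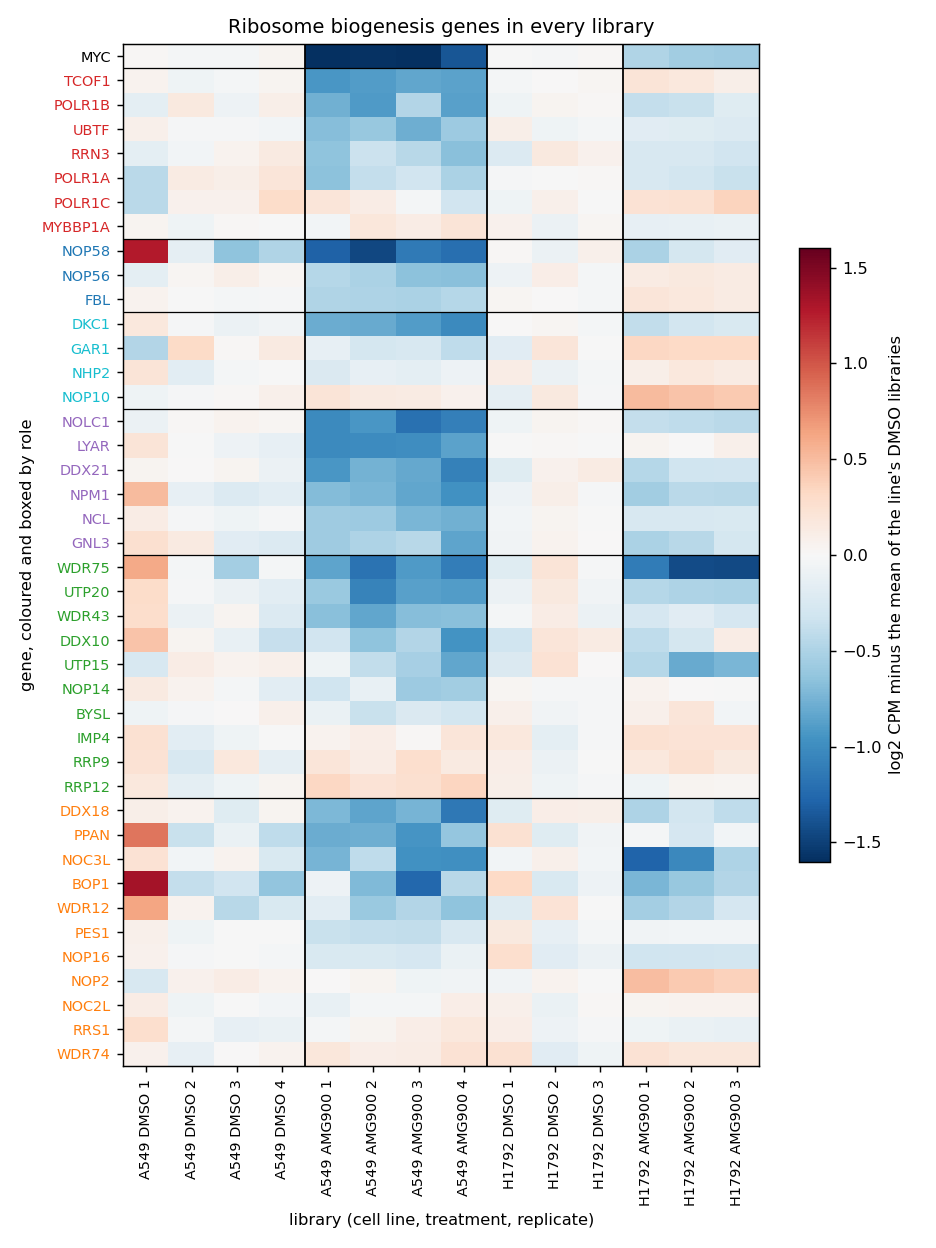
Log2 CPM of each of the 42 genes (rows, grouped and coloured by role) in each of the 14 libraries (columns), relative to the mean of the same line's DMSO libraries. The A549 AMG900 columns are blue over most roles, the H1792 AMG900 columns are paler with some rows in red, and A549 DMSO replicate 1 is red for *NOP58* and *BOP1*.

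Averaged over the 42 genes, log2 CPM in the A549 AMG900 libraries lay 0.44 to 0.54 below the DMSO mean, with a mean of -0.49 ± 0.04 (SD, n = 4). The DMSO libraries lay at -0.06 to 0.16, and replicate 1 was the highest. The H1792 AMG900 libraries had a mean of -0.17 ± 0.02 (SD, n = 3) and the DMSO libraries lay between -0.01 and 0.01. The AMG900 and DMSO libraries of a line did not overlap on this average. Of all scaled counts, the 42 genes together took 0.636% to 0.736% with DMSO and 0.460% to 0.480% with AMG900 in A549, and 0.827% to 0.838% and 0.765% to 0.770% in H1792.

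**Figure D2:**
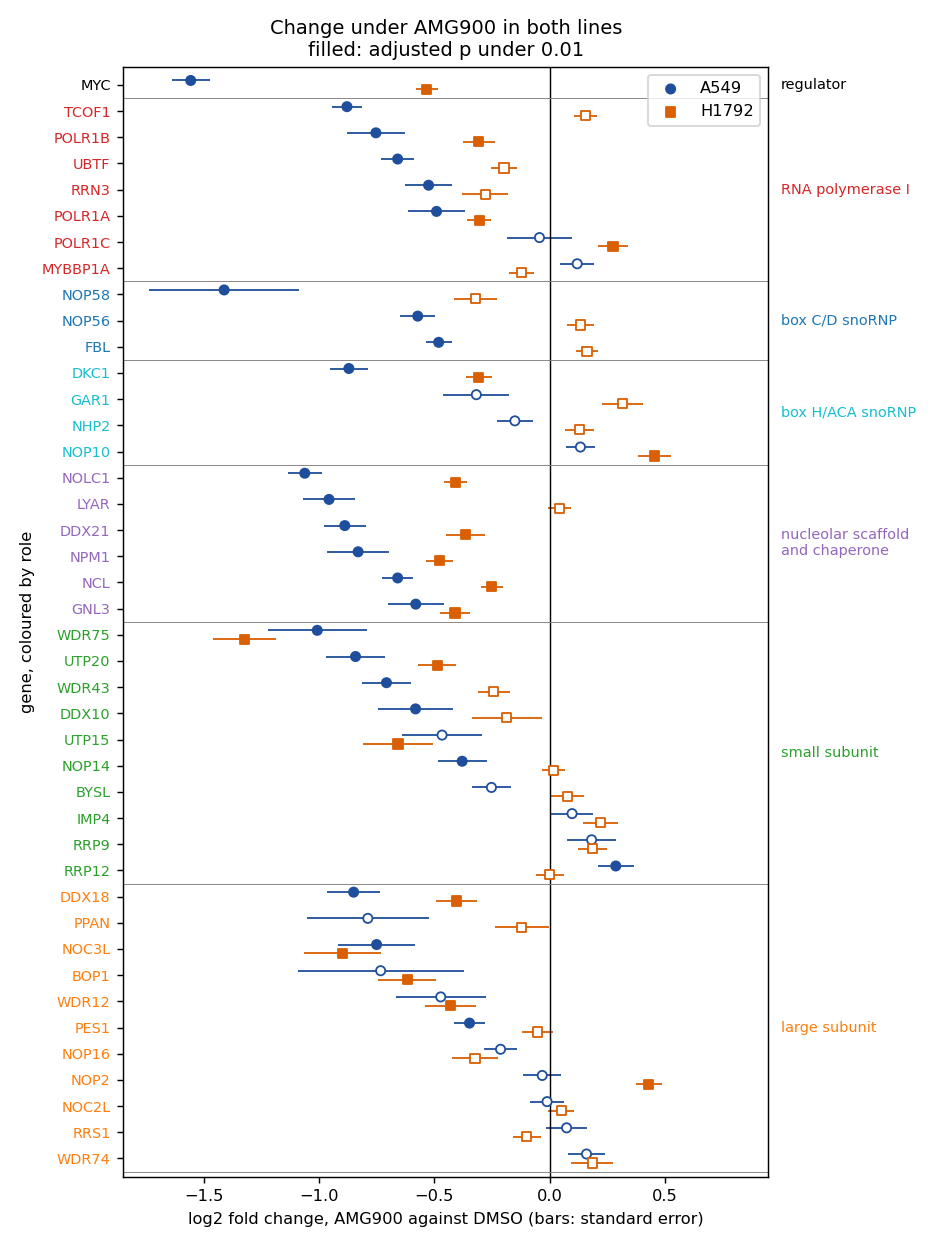
Log2 fold change of AMG900 against DMSO for the 42 genes, grouped by role, with circles for A549, squares for H1792 and bars for the standard error of the edgeR fit. Filled symbols have an adjusted p under 0.01, which holds for 25 genes in A549 and 19 in H1792, and most A549 symbols lie to the left of the H1792 symbols.

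*MYC* (ENSG00000136997, chromosome 8 from 128747680 to 128755197, GRCh37) had the largest decrease of the set in A549. Its level was 145, 140, 140 and 148 CPM with DMSO and 45.0, 47.9, 45.9 and 55.5 CPM with AMG900. H1792 cells had 830, 823 and 842 CPM with DMSO and 595, 567 and 561 CPM with AMG900. The groups did not overlap in either line, and every H1792 library, treated or not, was above every A549 library. *MYC* fell by 66.1% in A549, a log2 fold change of -1.56 (standard error, SE, 0.08, edgeR quasi-likelihood adjusted p = 1.7e-09, Benjamini-Hochberg), and by 30.9% in H1792, a log2 fold change of -0.53 (SE 0.05, edgeR adjusted p = 1.4e-05). The exact two-sided permutation p was 0.0286 in A549 and 0.1 in H1792, each the smallest that the number of libraries allows. With a correction for GC content the values were -1.55 and -0.55. The annotation has the antisense gene *CASC11* over an exon of *MYC*, and exons of 16 of the 42 members overlap a gene on the opposite strand. The strand setting of the counting is not given in the sources used here, so reads of such pairs may not have been told apart.

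Among the 7 genes of the RNA polymerase I machinery, 5 fell in A549 and none rose. *TCOF1*, encoding the nucleolar protein treacle, which acts in ribosomal DNA transcription, is on chromosome 5 from 149737192 to 149779871. It was at 341, 312, 319 and 337 CPM with DMSO and 171, 175, 183 and 181 CPM with AMG900 in A549. In H1792 it was at 407, 420 and 425 CPM with DMSO and 480, 469 and 445 CPM with AMG900. Every treated A549 library was below every DMSO library, and every treated H1792 library was above. The log2 fold change was -0.88 in A549 (SE 0.06, edgeR adjusted p = 5.4e-08) and 0.16 in H1792 (SE 0.05, edgeR adjusted p = 0.025), where it was -0.14 with GC correction.

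*RRN3*, the initiation factor that brings RNA polymerase I to its promoter (chromosome 16 from 15153890 to 15188168), was at 44.6, 48.5, 51.9 and 54.9 CPM with DMSO and 32.0, 39.3, 36.8 and 31.4 CPM with AMG900 in A549. The H1792 levels were 17.9, 23.3 and 21.9 CPM with DMSO and 17.5, 17.5 and 16.9 CPM with AMG900. The treated libraries were lower without overlap in both lines, by a wide gap in A549 and a narrow one in H1792. *RRN3* fell in A549 (log2 fold change -0.53, standard error 0.10, edgeR adjusted p = 0.00081) and was at -0.28 in H1792 (SE 0.10, edgeR adjusted p = 0.037). With GC correction the values were -0.15 and 0.01, and neither was called.

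The ribosomal DNA binding factor *UBTF* fell from 194 ± 7.34 to 122 ± 7.83 CPM in A549 (SD, n = 4 each), a log2 fold change of -0.66 (SE 0.07, edgeR adjusted p = 3.2e-06), and was at -0.20 in H1792 (edgeR adjusted p = 0.014). The largest catalytic subunits fell in both lines, *POLR1A* by 0.49 and 0.31 and *POLR1B* by 0.75 and 0.31 on the log2 scale in A549 and H1792. *POLR1A* was called in only 2 of the 8 A549 fits that each left out 1 library. *POLR1C*, a subunit that RNA polymerases I and III share (chromosome 6 from 43477440 to 43530156), went differently. It was at 27.3, 38.3, 38.3 and 45.0 CPM with DMSO and 41.95, 39.7, 35.8 and 29.7 CPM with AMG900 in A549, which overlap fully. H1792 libraries held 38.4, 42.4 and 39.9 CPM with DMSO and 47.0, 47.8 and 51.2 CPM with AMG900, without overlap. *POLR1C* rose in H1792 (log2 fold change 0.28, standard error 0.07, edgeR adjusted p = 0.0053), a call made in 2 of the 6 fits that left out 1 library, and was at -0.04 in A549 (edgeR adjusted p = 0.82). *MYBBP1A*, a nucleolar MYB-binding protein, was called in neither line (0.12 and -0.12), and with GC correction it was called lower in both (-0.26 and -0.43).

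The core proteins of box C/D snoRNPs, which carry the 2′-O-methylation machinery, fell in A549 in 3 of 3 cases and in H1792 in 0 of 3. *NOP56* (chromosome 20 from 2633239 to 2639039) was at 333, 378, 395 and 379 CPM with DMSO and 271, 260, 235 and 234 CPM with AMG900 in A549. In H1792 it was at 224, 254 and 232 CPM with DMSO and 259, 263 and 258 CPM with AMG900. The A549 libraries separated downward by a wide gap and the H1792 libraries upward by a narrow one. *NOP56* fell in A549 (log2 fold change -0.57, standard error 0.08, edgeR adjusted p = 2.3e-05) and was at 0.13 in H1792 (SE 0.06, edgeR adjusted p = 0.071).

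*FBL*, the methyltransferase fibrillarin, followed the same lines, with 653 ± 17.9 and 468 ± 7.40 CPM in A549 (SD, n = 4) and 805 ± 18.2 and 901 ± 20.9 CPM in H1792 (SD, n = 3). Its log2 fold change was -0.48 in A549 (SE 0.06, edgeR adjusted p = 8.3e-06) and 0.16 in H1792 (edgeR adjusted p = 0.014), which turned to -0.09 with GC correction. *NOP58* (chromosome 2 from 203130459 to 203168384) was at 106, 39.4, 27.9 and 31.2 CPM with DMSO and 17.9, 15.9, 19.96 and 18.9 CPM with AMG900 in A549. DMSO replicate 1 stood far above the other 3, and all 4 still lay above the treated libraries. The H1792 levels were 25.7, 23.8 and 26.8 CPM with DMSO and 17.9, 20.9 and 22.4 CPM with AMG900. The log2 fold change in A549 was -1.41 (SE 0.32, edgeR adjusted p = 0.0024) and -0.85 without DMSO replicate 1, and with GC correction it was -0.99 and not called (edgeR adjusted p = 0.021). The H1792 value was -0.32 (edgeR adjusted p = 0.015). The annotation has snoRNA genes that overlap exons of *NOP56*, *NOP58*, *NCL*, *DKC1* and *GNL3*, and the small nuclear RNA gene *RNU2-2P* over an exon of *WDR74*. How the counting treated such reads is not given in the sources used here.

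Of the 4 proteins of box H/ACA snoRNPs, which turn uridines of ribosomal RNA into pseudouridines, only the enzyme itself fell. *DKC1*, encoding dyskerin, fell from 128 ± 10.6 to 69.7 ± 4.99 CPM in A549 (SD, n = 4) and from 106 ± 2.57 to 86.0 ± 4.27 CPM in H1792 (SD, n = 3), log2 fold changes of -0.87 (edgeR adjusted p = 1.0e-06) and -0.31 (edgeR adjusted p = 0.0012). Its small partner *NOP10* (chromosome 15 from 34631360 to 34635381) was at 246, 254, 260 and 272 CPM with DMSO and 297, 286, 281 and 270 CPM with AMG900 in A549. H1792 libraries held 124, 152 and 135 CPM with DMSO and 193, 187 and 182 CPM with AMG900. The A549 groups overlapped by 1 library on each side, and the H1792 groups were well apart. *NOP10* rose in H1792 (log2 fold change 0.46, standard error 0.07, edgeR adjusted p = 0.00049), in all 6 fits that left out 1 library, and was at 0.13 in A549 (edgeR adjusted p = 0.096). The other partners, *GAR1* (-0.32 and 0.32) and *NHP2* (-0.15 and 0.13), were called in neither line. With GC correction *NHP2* was called lower in A549 (-0.43) and *GAR1* higher in H1792 (0.36).

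The nucleolar scaffold and chaperone genes were the role group with the lowest median of those with more than 1 member in both lines (log2 fold change -0.86 in A549 and -0.39 in H1792). With GC correction its medians were -0.52 and -0.18, and box C/D genes in A549 (-0.76) and large subunit factors in H1792 (-0.31) were lower. In A549 6 of 6 fell, and in H1792 5 of 6. *NOLC1*, a phosphoprotein that chaperones snoRNPs (chromosome 10 from 103911933 to 103923628), was at 280, 302, 310 and 306 CPM with DMSO and 147, 157, 130 and 140 CPM with AMG900 in A549. In H1792 it was at 315, 342 and 334 CPM with DMSO and 253, 249 and 245 CPM with AMG900. The groups were far apart in both lines, and the treated A549 libraries were the lowest of all. *NOLC1* fell by 52.2% in A549 (log2 fold change -1.06, standard error 0.07, edgeR adjusted p = 3.2e-08) and by 24.7% in H1792 (log2 fold change -0.41, standard error 0.05, edgeR adjusted p = 0.00011).

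*LYAR*, a nucleolar zinc finger protein (chromosome 4 from 4269428 to 4291881), was the one scaffold gene not called in H1792. It was at 36.0, 31.0, 29.5 and 28.5 CPM with DMSO and 15.4, 15.5, 15.6 and 17.2 CPM with AMG900 in A549. The H1792 levels were 92.8, 94.2 and 92.7 CPM with DMSO and 95.8, 94.0 and 98.3 CPM with AMG900. The A549 groups were apart and the H1792 groups overlapped. The log2 fold change was -0.96 in A549 (SE 0.11, edgeR adjusted p = 7.6e-06) and 0.04 in H1792 (SE 0.05, edgeR adjusted p = 0.51), where it was -0.02 with scaling by total counts and 0.24 with GC correction (edgeR adjusted p = 0.0013).

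Nucleolin, *NCL*, fell from 938 ± 52.1 to 594 ± 40.0 CPM in A549 and from 950 ± 29.9 to 799 ± 5.90 CPM in H1792, log2 fold changes of -0.66 and -0.25. Nucleophosmin, *NPM1*, fell by 0.83 and 0.48 on the log2 scale, but 49 pseudogenes bear its name in the annotation, and the sources used here do not say how reads shared with them were counted. The helicase *DDX21* (-0.89 and -0.37) and the GTPase nucleostemin, *GNL3* (-0.58 and -0.41), fell in both lines. In the fit with GC correction *DDX21* was at 0.00 in H1792, and *GNL3*, at -0.24 and -0.17, was called in neither line.

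Among the 10 factors of the small subunit, 5 fell and 1 rose in A549, and 3 fell in H1792. *WDR75*, a component of the complex that joins ribosomal DNA transcription to early processing (chromosome 2 from 190306172 to 190340278), had the largest decrease of the set in H1792 before GC correction, with which *BOP1* was lower. It was at 16.7, 10.7, 7.55 and 10.8 CPM with DMSO and 6.14, 4.84, 5.88 and 5.11 CPM with AMG900 in A549. H1792 libraries held 9.63, 12.8 and 10.9 CPM with DMSO and 5.08, 4.11 and 4.05 CPM with AMG900. No treated library reached a DMSO library in either line. The log2 fold change was -1.01 in A549 (SE 0.22, edgeR adjusted p = 0.0015) and -1.32 in H1792 (SE 0.14, edgeR adjusted p = 3.5e-05), and with GC correction -0.54 (edgeR adjusted p = 0.041) and -0.90 (edgeR adjusted p = 0.0001).

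*UTP15*, a member of the same complex (chromosome 5 from 72861268 to 72879205), was at 9.63, 12.5, 12.0 and 12.2 CPM with DMSO and 10.96, 8.77, 7.98 and 6.46 CPM with AMG900 in A549, with 1 treated library inside the DMSO range. In H1792 it was at 4.80, 6.59 and 5.65 CPM with DMSO and 4.10, 3.21 and 3.41 CPM with AMG900, without overlap. *UTP15* fell in H1792 (log2 fold change -0.66, standard error 0.15, edgeR adjusted p = 0.0046) and was at -0.47 in A549 (edgeR adjusted p = 0.037). The H1792 call was made in 2 of the 6 fits that left out 1 library, and the value was -0.20 with GC correction (edgeR adjusted p = 0.21). *UTP20*, whose promoter is printed above, fell by 0.84 and 0.49 on the log2 scale and was lower in both lines also with GC correction. Another member of the *WDR75* and *UTP15* complex, *WDR43*, was at -0.71 and -0.24 and was called in A549 alone. With GC correction *WDR43* was at -0.27 and 0.11 and called in neither line.

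*RRP12*, a factor of small subunit export (chromosome 10 from 99116115 to 99185833), was the 1 member that rose in A549. It was at 137, 110, 117 and 125 CPM with DMSO and 152.8, 141, 146 and 155 CPM with AMG900 there, without overlap. The H1792 levels were 143, 128 and 133 CPM with DMSO and 128, 139 and 138 CPM with AMG900, which overlap. The log2 fold change in A549 was 0.29 (SE 0.08, edgeR adjusted p = 0.0078). That call was made in 1 of the 8 fits that left out 1 library, and the value was -0.03 with GC correction (edgeR adjusted p = 0.76). The H1792 value was 0.00 (edgeR adjusted p = 0.99) and -0.27 with GC correction (edgeR adjusted p = 0.00071). *NOP14* and *DDX10* fell in A549 by 0.38 and 0.58 on the log2 scale, each called in 3 of the 8 fits that left out 1 library. *BYSL* (-0.25 and 0.08), *IMP4* (0.10 and 0.22) and *RRP9* (0.18 and 0.19) were called in neither line. With GC correction *BYSL* was called lower in A549 (-0.51), and in H1792 *BYSL* (-0.16) and *RRP9* (-0.12) turned sign without a call.

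Of the 11 factors of the large subunit, 3 fell in A549, and 4 fell and 1 rose in H1792. *NOC3L*, a factor of early large subunit assembly (chromosome 10 from 96092983 to 96122716), was at 17.4, 14.3, 15.3 and 12.5 CPM with DMSO and 8.79, 11.1, 7.55 and 7.50 CPM with AMG900 in A549. H1792 libraries held 12.5, 13.7 and 12.6 CPM with DMSO and 5.34, 6.33 and 9.17 CPM with AMG900. The groups were apart in both lines. *NOC3L* fell by 40.6% in A549 (log2 fold change -0.75, standard error 0.17, edgeR adjusted p = 0.0018) and by 46.4% in H1792 (log2 fold change -0.90, standard error 0.17, edgeR adjusted p = 0.0013). It has the lowest transcript GC content of the set, 37.7%, and with GC correction the values were -0.25 and -0.40 and neither was called.

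*NOP2*, a ribosomal RNA methyltransferase (chromosome 12 from 6666029 to 6677857), was at 130, 164, 169 and 162 CPM with DMSO and 157, 160, 148 and 149 CPM with AMG900 in A549. In H1792 it was at 120, 130 and 124 CPM with DMSO and 176, 167 and 161 CPM with AMG900. The A549 groups overlapped, and the H1792 groups lay well apart with AMG900 higher. *NOP2* rose by 34.7% in H1792 (log2 fold change 0.43, standard error 0.06, edgeR adjusted p = 0.00015) and was at -0.03 in A549 (edgeR adjusted p = 0.77). The rise was called in all 6 fits that left out 1 library and with GC correction (0.24, edgeR adjusted p = 0.0051).

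*PES1*, *BOP1* and *WDR12* encode the 3 proteins of the PeBoW complex, which acts in large subunit processing. *BOP1* (chromosome 8 from 145486055 to 145515082) was at 107, 32.7, 34.4 and 27.4 CPM with DMSO and 40.3, 26.2, 17.8 and 31.3 CPM with AMG900 in A549. DMSO replicate 1 stood apart and the other DMSO libraries overlapped the treated ones. The H1792 levels were 110, 74.5 and 83.0 CPM with DMSO and 53.1, 57.9 and 63.6 CPM with AMG900, without overlap. *BOP1* fell in H1792 (log2 fold change -0.62, standard error 0.13, edgeR adjusted p = 0.0023). In A549 its log2 fold change was -0.73 (SE 0.36, edgeR adjusted p = 0.11) and -0.14 without DMSO replicate 1. *WDR12* was at -0.47 in A549 (edgeR adjusted p = 0.057) and fell by 0.43 on the log2 scale in H1792 (edgeR adjusted p = 0.0081, called in 2 of 6 fits that left out 1 library). *PES1* fell by 0.35 in A549 (edgeR adjusted p = 0.00056) and was at -0.05 in H1792. With GC correction *PES1* was called lower in both lines (-0.65 and -0.31), *BOP1* in H1792 (-1.12 and -0.95) and *WDR12* in neither (-0.02 and -0.05).

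Of the other large subunit factors, the helicase *DDX18* fell in both lines (-0.85 and -0.40). Its H1792 call was made in 3 of 6 fits that left out 1 library, and the value there was -0.01 with GC correction. *PPAN* was at -0.79 in A549 (SE 0.26, edgeR adjusted p = 0.023) and -0.12 in H1792. The readthrough gene *PPAN-P2RY11*, which shares its exons, was at or below 0.352 CPM in every library. *NOP16* (-0.21 and -0.32), *NOC2L* (-0.01 and 0.05), *RRS1* (0.07 and -0.10) and *WDR74* (0.16 and 0.19) were called in neither line. With GC correction *NOP16*, *PPAN* and *NOC2L* were lower in both lines at the threshold.

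**Figure D3:**
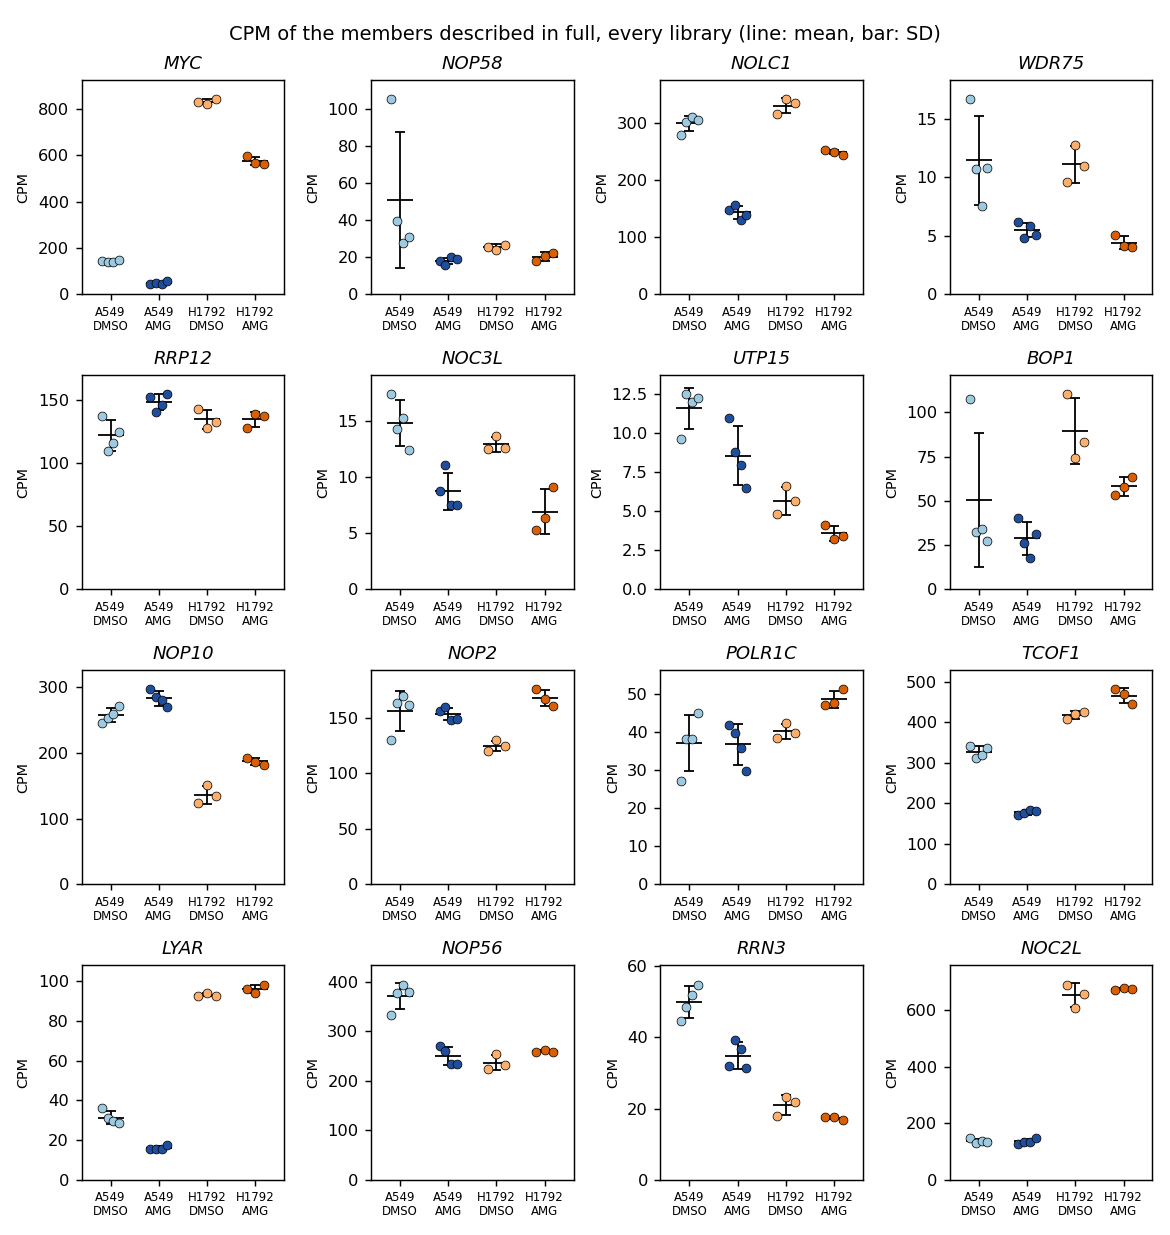
CPM of the 16 members given with all values, in every library, with 1 panel per gene and a y axis from 0. Points are libraries, grouped as A549 DMSO, A549 AMG900, H1792 DMSO and H1792 AMG900, the horizontal line is the mean and the bar the SD, and *MYC*, *NOLC1* and *WDR75* are lower with AMG900 in both lines without overlap.

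Whether AMG900 acted differently on the members in H1792 than in A549 was tested as the line by treatment contrast in 1 edgeR fit over all 14 libraries (14769 genes tested). At the FDR threshold of 0.01, 9 members were called above 0, meaning a higher fold change in H1792, and 0 were called below 0, where 5.37% of all genes were called above and 9.17% below. Whether called or not, 11 of the 42 values were below 0. At an unadjusted p under 0.05 (edgeR), 20 members were higher and 3 lower. The share of all genes at that unadjusted threshold was not counted, so these counts have no background to be read against. DESeq2 at the FDR threshold of 0.01 gave 14 members higher and 0 lower, where 9.42% and 9.78% of all genes were so. The median difference over the members was 0.27, against -0.10 over all genes tested. *TCOF1* (0.96, standard error 0.08, edgeR adjusted p = 5.8e-08), *MYC* (0.95, standard error 0.10, edgeR adjusted p = 8.8e-07) and *LYAR* (0.92, standard error 0.11, edgeR adjusted p = 4.7e-06) differed the most. The others were *NOP56* (0.63), *NOLC1* (0.58), *FBL* (0.57), *DKC1* (0.49), *UBTF* (0.38) and *NCL* (0.33). Of the 9, *UBTF* and *NCL* were each called in 6 of the 14 fits that left out 1 library and the other 7 in all 14. All 9 were also called with GC correction, when *NOP2*, *GAR1*, *NOP10*, *PES1*, *DDX21* and *BYSL* were added and 9.31% of all genes were higher and 7.66% lower. Box C/D genes accounted for 2 of the 9, with *NOP58* at 0.99 but an SE of 0.41 (edgeR adjusted p = 0.084). None of the 21 subunit assembly factors differed between the lines at the threshold, and their values ran from -0.41 to 0.55.

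Marks of proliferation moved with the members in A549. *MKI67* fell there by 3.46 (edgeR adjusted p = 8.3e-11), *AURKB* by 3.21 (edgeR adjusted p = 2.1e-11) and *AURKA* by 2.49 on the log2 scale (edgeR adjusted p = 2.4e-11), and the p53 target *CDKN1A* rose by 1.73 (edgeR adjusted p = 6.5e-11). In H1792 *MKI67* was at 0.08 (edgeR adjusted p = 0.52) and *AURKA* at 0.14 (edgeR adjusted p = 0.13), while *AURKB* rose by 0.24 (0.02 with GC correction) and *CDKN1A* by 0.60. Of the 8 proliferation and p53 genes listed, 5 fell and 3 rose in A549, and 0 fell and 3 rose in H1792. Of all genes, 17.8% fell and 17.2% rose in A549, and 18.8% and 16.2% in H1792. With GC correction 5 of the 8 fell and 3 rose in A549, where 17.8% and 14.5% of all genes did so. In H1792 0 then fell and 5 rose, where 22.1% and 15.1% of all genes did so. The part of a changed share of cycling cells in the member values was not tested.

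The fold changes also moved with the GC content of the transcript, which ran over the members from 37.7% to 65.6% (median 49.4%, against 49.3% for genes tested in A549). Across all genes the log2 fold change rose with GC content, with a Spearman's rho of 0.499 in A549 and 0.481 in H1792. Across the 42 members, which share libraries and are not independent, rho was 0.51 and 0.57. Among the 21 members with lower GC content 17 fell in A549 and 14 in H1792, and among the 21 with higher GC content 7 and 2 fell. Of all genes below the members' median GC content, 27.2% fell in A549 and 30.9% in H1792. Of all genes at or above it, 9.05% and 7.59% fell. A spline correction for GC content in each library brought rho over the members to -0.17 and -0.26, and then 23 members were lower and 0 higher in A549 and 17 lower and 5 higher in H1792, where 17.8% and 14.5% of all genes were lower and higher in A549 and 22.1% and 15.1% in H1792. Of the 24 genes lower in A549, 17 kept the call with the correction, and *NOP58*, *WDR43*, *WDR75*, *DDX10*, *GNL3*, *NOC3L* and *RRN3* did not. Of the 16 lower in H1792, 9 kept it, and *WDR12*, *UTP15*, *DDX21*, *DDX18*, *GNL3*, *NOC3L* and *POLR1B* did not. Calls of lower levels were added for 6 genes in A549 (*NOP16*, *NHP2*, *NOC2L*, *BYSL*, *PPAN* and *MYBBP1A*) and for 8 in H1792 (*NOP16*, *PES1*, *RRS1*, *RRP12*, *NOC2L*, *UBTF*, *PPAN* and *MYBBP1A*). Of the 13 lower in both lines, 7 kept both calls: *MYC*, *NCL*, *NPM1*, *NOLC1*, *DKC1*, *UTP20* and *POLR1A*. What the GC trend rests on was not tested.

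**Figure D4:**
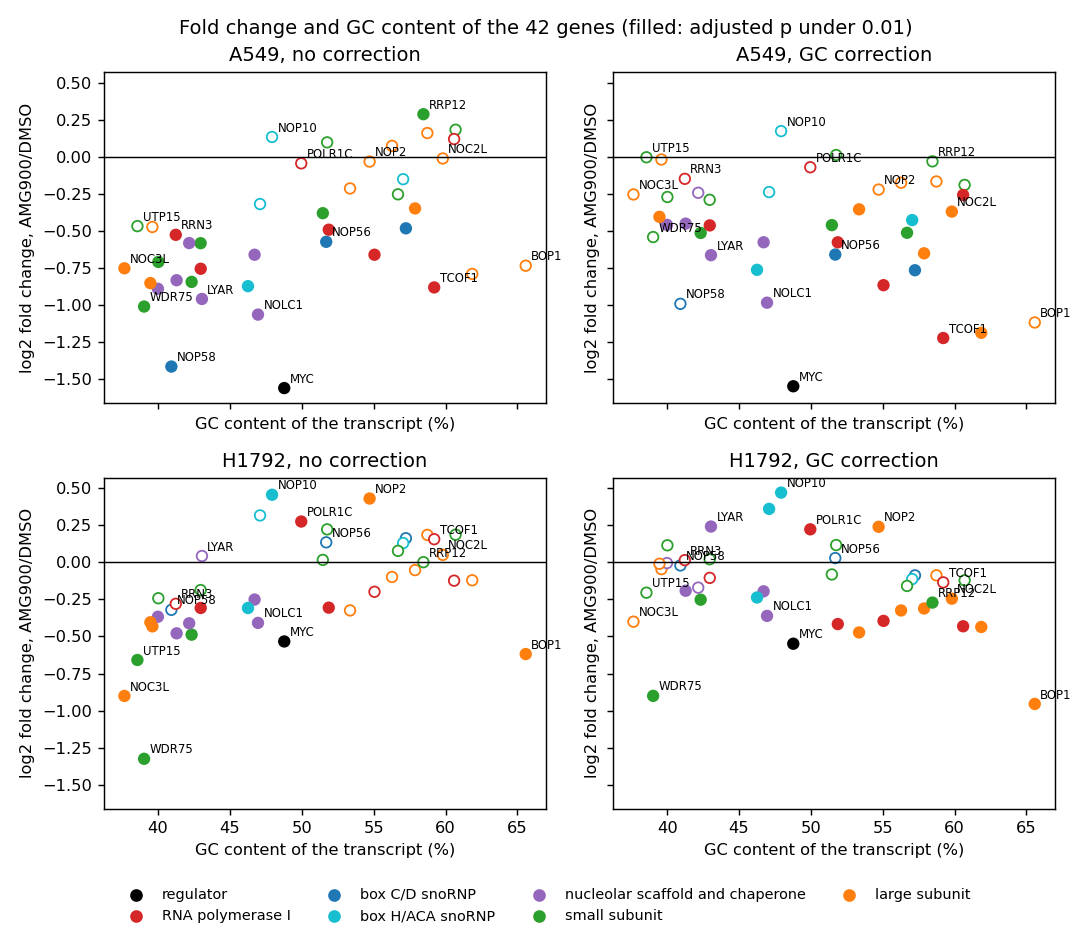
Log2 fold change of AMG900 against DMSO (y axis) and GC content of the transcript in percent (x axis) for the 42 genes, in A549 (top) and H1792 (bottom), without (left) and with (right) the GC correction. Colours mark the role and filled symbols an adjusted p under 0.01, and the rise of the points from left to right (Spearman's rho 0.51 and 0.57) is absent in the corrected panels (rho -0.17 and -0.26).

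With DMSO alone, the lines differed in 28 of the 42 genes, 21 higher and 7 lower in H1792, in the same 14-library fit (edgeR quasi-likelihood test). Of all genes, 34.2% were higher and 31.9% lower. Each line's libraries form a table of their own, so line and library preparation cannot be told apart. Scaling by total counts shifted all genes by -0.11 on the log2 scale in this contrast and gave 17 members higher and 11 lower. By that scaling 4600 of 14769 genes were higher and 5167 lower. The median difference was 0.21 over the members and 0.04 over all genes. *MYC* was 6.22-fold higher in H1792 (137 ± 4.96 CPM in A549 and 852 ± 10.6 CPM in H1792 in the joint scaling, log2 difference 2.64, standard error 0.07, edgeR adjusted p = 6.9e-17). *NOC2L*, a factor of early large subunit assembly on chromosome 1 from 879583 to 894689, came next. It was at 149, 131, 137 and 134 CPM with DMSO in A549 and 691, 607 and 659 CPM in H1792, a log2 difference of 2.35 (SE 0.07, edgeR adjusted p = 2.7e-16). With AMG900 it was at 127, 135, 135 and 148 CPM in A549 and 671, 679 and 676 CPM in H1792, inside or near the DMSO range of each line. *LYAR* followed, with a log2 difference of 1.70 (edgeR adjusted p = 1.7e-13).

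*RRN3* was the member most in favour of A549, with a log2 difference of -1.16 (SE 0.11, edgeR adjusted p = 1.4e-08). After it came *UTP15* at -0.95 (edgeR adjusted p = 5.4e-05), *NOP10* at -0.82 (edgeR adjusted p = 3.5e-09) and *RRS1* at -0.76 (edgeR adjusted p = 1.8e-07). *NOP58* was at -0.81 with an adjusted p of 0.017 (edgeR) and -0.27 without A549 DMSO replicate 1. Within the RNA polymerase I group *MYBBP1A* (1.42), *POLR1A* (1.20), *POLR1B* (0.67) and *TCOF1* (0.45) were higher in H1792 while *RRN3* and *UBTF* (-0.23) were lower. Per kilobase of transcript, DMSO levels over the set ran from 2.17 CPM for *UTP15* to 710 CPM for *NPM1* in A549, and from 1.14 CPM for *UTP15* to 733 CPM for *FBL* in H1792. *NPM1*, *FBL* and *NOP10* were the 3 highest in A549. *MYC* ranked 17 of 42 in A549 and 7 of 42 in H1792.

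**Figure D5:**
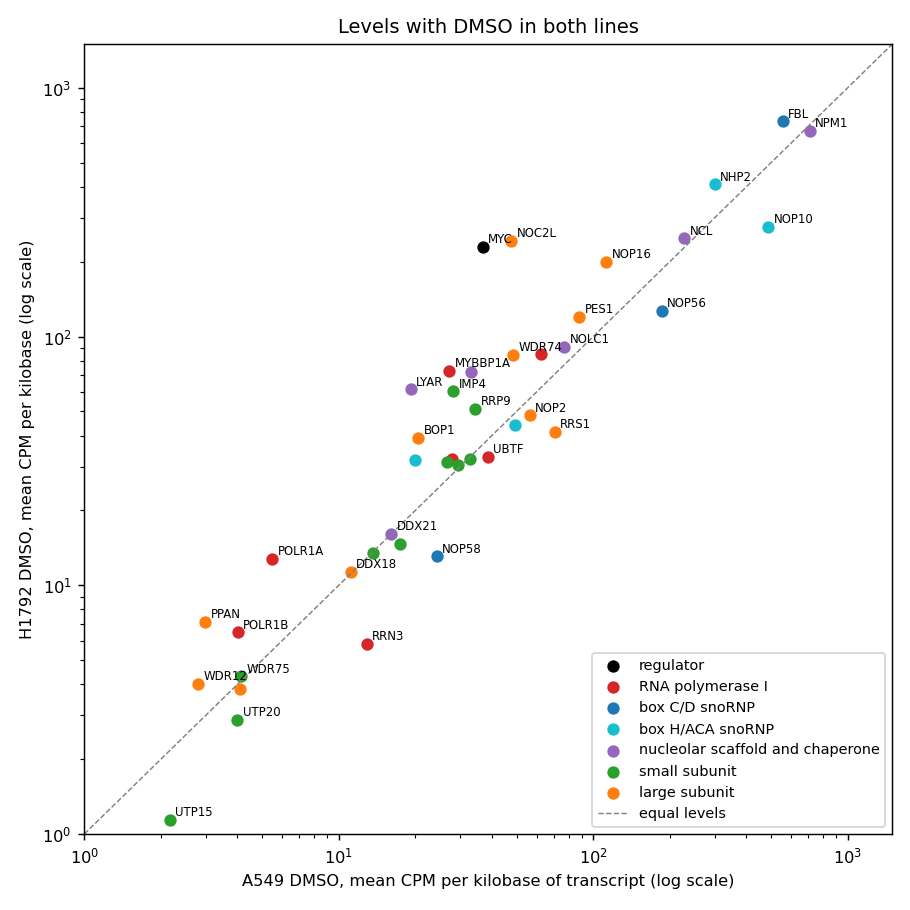
Mean CPM per kilobase of transcript with DMSO in A549 (x axis) and H1792 (y axis), both on log scales, with 1 point per gene coloured by role and the dashed line marking equal levels; 11 points in crowded places carry no name. *MYC* and *NOC2L* lie farthest above the line, at 36.8 and 47.6 in A549 and 229 and 242 in H1792, and *RRN3* lies farthest below it.

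Of the members with an E-box in the promoter window 9 of 16 fell in A549 (median log2 fold change -0.36), and of those without it 10 of 18 (median -0.55). In H1792 4 of 16 with it and 8 of 18 without it fell (medians 0.03 and -0.27), and 2 and 1 rose. Over all genes with a window, 23.2% with an E-box and 18.2% without it were lower in A549, and 20.6% and 19.4% in H1792. These are descriptions, since the window may miss sites elsewhere in a gene.

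The pattern was looked at next in 133 other genes of ribosome biogenesis. In A549 52 of the 131 tested fell (39.7%) and 2 rose (1.53%), with a median log2 fold change of -0.32, and in H1792 37 of 133 fell (27.8%) and 16 rose (12.0%), with a median of -0.13. Of all genes, 17.8% fell and 17.2% rose in A549 and 18.8% and 16.2% in H1792, and the next lists are read against the same shares. Besides *NMD3*, the nuclear export adaptor of the large subunit, the largest decreases in A549 were in the exosome helicase *MTREX*, counted under the symbol SKIV2L2 (-1.43), and *RSL24D1* (-1.42). *NMD3* fell from 9.24 ± 7.34 to 2.30 ± 1.08 CPM in A549 (log2 fold change -1.89, edgeR adjusted p = 0.0029) and from 6.72 ± 0.587 to 1.84 ± 0.462 CPM in H1792 (-1.88, edgeR adjusted p = 1.9e-05). In H1792 the exosome cofactor *C1D* (-1.81) and *NOL11* (-1.26) followed. *NOP53*, counted under the symbol GLTSCR2, rose by 0.56 and *EXOSC5* by 0.35 in A549, and *EXOSC1* (0.72), *NIFK* (0.65) and *SENP3* (0.57) rose most in H1792. With GC correction the calls of *NMD3* (-1.38), *RSL24D1* (-0.84), *NOP53* (0.13) and *EXOSC5* (-0.04) in A549 and of *SENP3* (0.33) in H1792 were lost, and 43 genes fell and 1 rose in A549 and 42 and 19 in H1792 (medians -0.26 and -0.08). In A549 the DMSO libraries of *RSL24D1* were spread from 21.8 to 106 CPM.

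Of 23 tested genes known as MYC targets outside the nucleolus, 17 fell (73.9%) and 1 rose (4.35%) in A549 (median -0.60), and 10 fell (43.5%) and 4 rose (17.4%) in H1792 (median -0.16). With GC correction 18 fell and 0 rose in A549 (median -0.65), and 16 fell and 4 rose in H1792 (median -0.34). The enzyme *LDHA* (-1.42), the cap-binding factor *EIF4E* (-1.40) and *RANBP1* (-1.30) fell most in A549. *TFRC*, the transferrin receptor (-1.37), *EIF4E* (-1.29) and *PPAT* (-0.86) fell most in H1792. *NME1* rose in both lines (0.32, a call lost with GC correction, and 0.25), and *NME2* (0.78) and *PA2G4* (0.37) rose in H1792. In the MYC network itself, the partner *MAX* was not called in either line (-0.07 and -0.03). The MAX-binding *MGA* fell in both (-1.04 and -0.64), *MXD3* fell in A549 (-1.42), *MXD4* rose in both (0.62 and 0.30) and *MLX* rose in H1792 (0.25). With GC correction *MXD4* was at 0.19 and -0.03 and *MLX* in H1792 at 0.19, and none of these was called. *PVT1*, a noncoding neighbour of *MYC*, rose in both lines while *MYC* fell (log2 fold change 0.71, edgeR adjusted p = 0.0016, and 0.32, edgeR adjusted p = 0.00035). Over the network 2 of 11 fell (18.2%) and 2 rose (18.2%) in A549, near the shares over all genes, and 1 of 12 fell (8.33%) and 3 rose (25.0%) in H1792. With GC correction 2 fell and 3 rose in A549, and 4 fell and 2 rose in H1792. The medians were 0.24 and -0.03, and -0.06 and -0.05 with GC correction.

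Genes known to host snoRNAs in their introns were counted last. Of 12, 2 fell (16.7%) and 4 rose (33.3%) in A549, and 1 fell (8.33%) and 6 rose (50%) in H1792 (medians 0.03 and 0.31). With GC correction 2 fell and 5 rose in A549, and 1 fell and 4 rose in H1792 (medians 0.15 and 0.13). *GAS5* (0.95), *ZFAS1* (0.68) and *EPB41L4A-AS1* (1.12) rose and *SNHG1* (-1.28) and *SNHG3* (-1.07) fell in A549. *SNHG6* (0.72), *ZFAS1* (0.49) and *SNHG12* (0.43) rose and *SNHG8* (-0.62) fell in H1792. With GC correction the calls of *SNHG1* (-1.05), *SNHG12* (0.24) and *SNHG8* (-0.22) were lost.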

How the data were processed

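RNA sequencing of 14 libraries was used as deposited. The authors gave raw read counts per gene symbol, 1 table per line, without normalization, and the submitters' processing notes name STAR, HTSeq, hg19 and GRCh37. The tool versions, the annotation and the strand setting are not given in the sources used here. Dates stood in place of symbols in 28 entries of the H1792 table, which were left out. The software was edgeR 4.0.16, DESeq2 1.42.0 and limma 3.58.1 under R 4.3.3. After filterByExpr and TMM scaling, quasi-likelihood tests (edgeR) were run in each line, p-values were adjusted by Benjamini-Hochberg over all genes tested, and FDR under 0.01 was called, without a replicate block. The line by treatment contrast and the DMSO contrast came from 1 fit over all 14 libraries. CPM values are TMM-scaled within a line unless a joint scaling is named, and permutation tests of single genes were exact and two-sided. The biological coefficient of variation was 12.8% in A549 and 9.60% in H1792, and it and the 3 or 4 libraries per group limit the precision.

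Positions, transcript lengths and GC content came from GENCODE v44lift37 on GRCh37, with 22373 of 26760 table names matched by current and 1255 by older symbol. GC correction used a natural spline with 5 degrees of freedom per library as offsets. The steps were tested on simulated data. The members and the gene lists were chosen with earlier results of these data known. Named with every value are *MYC*, in each line the 4 members with the largest fall and the 3 with the largest rise among those called, the 4 with the largest line by treatment difference and the 2 with the largest DMSO difference each way, and from each other list the 3 largest falls and rises per line. *FBL*, *DKC1*, *NCL* and the other members are given by mean or fold change. The alternatives were a replicate block, GC correction (also with the block or with length), DESeq2, its size factors, total counts, no filter, a minimum of 10 counts per library, FDR under 0.05, a 2-fold minimum change, and each library left out in turn.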

Additional observations from a re-analysis of the deposited data

Results flagged for a closer look

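In 34 groups of 4 libraries tested for a library far from the others, 4 values stood out, where chance gives about 1 in 20. In A549 with DMSO, replicate 1, the library with the fewest counts, was apart from the other 3 for *NOP58* (106 CPM, others 27.9 to 39.4), for *BOP1* (107 CPM, others 27.4 to 34.4) and for the mean over the 42 members (0.16 above the DMSO mean in log2 CPM, others -0.06 to -0.03). Without it the log2 fold change was -0.85 for *NOP58* and -0.14 for *BOP1*, and 27 members were lower in A549, where 2978 of 13452 genes were. *LYAR* was at 17.2 CPM in A549 AMG900 replicate 4, with the other treated libraries between 15.4 and 15.6 CPM.

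For 9 members the effect of AMG900 differed between the lines by the edgeR line by treatment contrast, with a log2 fold change that was higher in H1792 by 0.96 for *TCOF1*, 0.95 for *MYC*, 0.92 for *LYAR*, 0.63 for *NOP56*, 0.58 for *NOLC1*, 0.57 for *FBL*, 0.49 for *DKC1*, 0.38 for *UBTF* and 0.33 for *NCL*. *MKI67* differed in the same contrast by 3.46, and what a different share of cycling cells contributed was not tested.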

How the results depend on the processing

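Precision was limited by 3 or 4 libraries per group. Over all alternatives, values of the 16 members given with every library kept direction and call 1064 times, lost a call 63 times, gained one 35 times and changed sign 54 times, and counts and medians stayed close 157 times and moved 43 times. Leaving out 1 library each in turn gave 21 to 27 members lower and 0 to 1 higher in A549, 10 to 21 lower and 2 to 8 higher in H1792 (10 without AMG900 replicate 1 or 2, 11 without DMSO replicate 3, 21 without DMSO replicate 1, and 8 higher without DMSO replicate 1 and 5 without DMSO replicate 2), 7 to 12 higher and 0 to 2 lower in the line by treatment contrast, and 17 to 21 higher and 5 to 9 lower for DMSO, with medians of -0.59 to -0.48 in A549 and -0.21 to -0.17 in H1792. Calls over all genes in H1792 moved with the same libraries, from 1853 of 15142 lower without AMG900 replicate 1 to 3656 of 15180 without DMSO replicate 1. Higher calls there moved from 1382 to 3047 in the same fits. In A549, 1846 of 13232 to 2978 of 13452 genes were lower and 1845 of 13232 to 2876 of 13452 higher. The line by treatment contrast had 602 of 14991 to 1142 of 14868 higher and 965 of 14991 to 1918 of 14868 lower. For DMSO, 4765 of 15013 to 5286 of 14868 were higher and 4117 of 15005 to 4903 of 14868 lower. With a change of at least 2-fold, 4 members were lower and 0 higher in A549, 1 lower and 0 higher in H1792, 0 higher in the line by treatment contrast, and 9 higher and 1 lower for DMSO. Over all genes, 769 of 13174 were lower and 695 higher by that rule in A549, and 781 of 15017 and 476 in H1792. Of 14769 genes, 395 were higher in the line by treatment contrast, and 2973 were higher and 2810 lower for DMSO. In A549 0 were higher also with GC correction, GC and length correction, the replicate block, the block with GC correction and total counts. In that order, 1905, 1867, 1923, 1630 and 1870 of the 13174 genes tested were higher. In H1792 5 were higher with GC correction and with at least 10 counts in every library, and 8 at an FDR threshold of 0.05. Of all genes there, 2267 of 15017, 2524 of 13759 and 3689 of 15017 were higher under those settings in turn. The line by treatment contrast gave 14 higher with DESeq2, 15 with GC correction, 16 with GC and length correction and 2 lower at 0.05. Of all genes, 1405 of 14910, 1375 of 14769 and 1417 of 14769 were higher in those fits, and 2297 of 14769 lower at 0.05. Scaling by total counts gave 11 lower for DMSO, where 5167 of 14769 genes were lower. The A549 median was -0.44 with GC correction, -0.41 with GC and length correction and -0.42 with the block and GC correction. The H1792 median was -0.21 with DESeq2, -0.15 with GC correction and with the block and GC correction, -0.18 with at least 10 counts and -0.26 with total counts. Replicate numbers did not pair the samples, with correlations of same-numbered libraries from -0.06 to 0.04 and 1 of 7 correlating best with its own number, so they share only a number. With the replicate block 24 members were lower and 0 higher in A549, 16 lower and 2 higher in H1792, and 7 higher in the line by treatment contrast. Of all genes, 1984 of 13174 were then lower and 1923 higher in A549, and 2618 of 15017 and 2170 in H1792. In the line by treatment contrast 604 of 14769 genes were higher with the block. A block fit of the DMSO contrast was not run, since blocks lie within a line. Values of these 16 changed sign mostly where they were near 0. In A549 *RRP12* was -0.030 with GC correction and -0.032 with the block added, *UTP15* 0.050 with GC and length correction, and *NOP2* 0.000942 and *NOC2L* 0.024 with at least 10 counts. In H1792 *RRP12* was -0.013 with DESeq2, -0.0061 with its size factors, -0.0099 with no filter, -0.063 with total counts, -0.27 with GC correction with or without the block and -0.19 with GC and length correction. *NOC2L* there was -0.013 with total counts, -0.25 with GC correction with or without the block and -0.24 with GC and length correction. *TCOF1* was -0.14, -0.13 and -0.044 with GC correction, with the block added and with length added, and *RRN3* was 0.015, 0.017 and 0.046 in the same fits. *NOP56* was -0.041 with GC and length correction and *LYAR* -0.022 with total counts. In the line by treatment contrast *BOP1* was -0.00182 with at least 10 counts and -0.056 with the block, and *NOC2L* was 0.057 with DESeq2, 0.062 with its size factors, 0.073 with total counts and 0.18 with each GC correction. *POLR1C* with DMSO was -0.035 with GC and length correction. Leaving out 1 library turned the sign within -0.043 to 0.038 for *RRP12* and -0.0085 to 0.072 for *NOC2L* in H1792, within -0.11 to 0.0079 for *NOP2*, -0.051 to 0.025 for *NOC2L* and -0.15 to 0.059 for *POLR1C* in A549, within -0.54 to 0.22 for *BOP1* and -0.068 to 0.033 for *NOC2L* in the line by treatment contrast, and within -0.15 to 0.0035 for *NOC3L* and -0.038 to 0.29 for *WDR75* with DMSO. The causes were not tested.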

Other observations

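Entries of the ribosomal RNA precursor and of the RNAs of RNase MRP and RNase P were looked at after the member values had been seen. The 45S ribosomal RNA precursor entry *RNA45S5* was at 2107 to 3775 CPM with DMSO and 5617 to 7923 CPM with AMG900 in A549, without overlap (log2 fold change 1.19, SE 0.15, edgeR adjusted p = 1.4e-05). H1792 libraries ranged from 4609 to 9523 CPM with DMSO and from 6893 to 15298 CPM with AMG900, which overlap (log2 fold change 0.58, SE 0.29, edgeR adjusted p = 0.12). Without GC correction, its direction was opposite to that of most members in A549. The values of this entry, *RMRP* and *RPPH1* are all from the fit without GC correction, and none with it is given. Whether the reads of *RNA45S5* came from the precursor or from mature ribosomal RNA was not tested. *RMRP*, the RNA of the RNase MRP that cleaves the precursor, was called higher in both lines (log2 fold change 2.42, edgeR adjusted p = 0.0039, and 1.96, edgeR adjusted p = 0.0063), but the groups overlapped in both. Libraries ran from 0.940 to 7.06 CPM with DMSO, with counts as low as 4, and from 5.05 to 47.5 CPM with AMG900 in A549. In H1792 they ran from 3.03 to 8.23 CPM and from 7.91 to 32.3 CPM. *RPPH1*, the RNA of RNase P, was at 1.81 (edgeR adjusted p = 0.017) and 1.48 (edgeR adjusted p = 0.024), not called and with overlap in both lines. How ribosomal RNA was handled in library preparation is not given in the sources used here.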
